A study of Mus musculus with 16 samples.

Results

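The 4 fibroblast growth factor (FGF) receptor genes Fgfr1, Fgfr2, Fgfr3 and Fgfr4, the co-receptor gene Kl and the 5 feedback genes Spry1, Spry2, Spry4, Spred1 and Dusp6 were examined in mouse granulosa cells (mGCs), the hormone-producing cells that surround the oocyte. These 10 genes were taken by symbol from 57010 genes counted in 16 RNA-seq libraries, and all 10 passed the filter on low counts in every comparison. The Con group held fresh mGCs of 5 sham-operated ICR mice, and the EM group held fresh mGCs of 5 ICR mice with an endometriosis model, in which endometrium of donor mice was sewn to the mesentery. The PBS and EET groups, with 3 libraries each, held mGCs of EM mice kept in DMEM/F12 medium (5% serum of fetal calves) and given PBS or 100 nM of 14,15-EET for 24 hours. A figure legend of the paper puts 24 hours of culture before this treatment, while its methods and the sample titles mention 24 hours only. 14,15-EET is an epoxyeicosatrienoic acid, a lipid made from arachidonic acid. The fresh cells were collected after ovulation induction. The methods add that the model was made in mice of 6 weeks, that recipients were given 17β-estradiol followed by a washout, and that cells of 6 EM mice gave the cultured libraries. The model is an allograft in mice that keep their ovaries.

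FGFs bind receptor tyrosine kinases on the cell surface, with heparan sulphate or a Klotho protein as a partner. The receptors act through adaptor proteins on RAS and the RAF, MEK and ERK kinases. Active ERK induces its own inhibitors, among them Sprouty and Spred proteins, which act on the steps around RAS and RAF, and DUSP6, a phosphatase that removes phosphate from ERK in the cytoplasm. In the ovary, FGFs pass between oocyte, granulosa and theca cells, and FGF signals of the oocyte are known to act on glycolysis in cumulus cells.

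Total counts per library were 14229123 to 15999234 in the fresh groups and 21384686 to 29482826 in the cultured groups. All 12 granulosa markers had a mean of at least 1 CPM (counts scaled to library size) in both fresh groups, and 11 of 12 did so in culture, where Cyp19a1, the aromatase gene, was at 0.169 CPM in PBS against 288 CPM in EM. The fresh isolates also held RNA of other cells. Summed levels of 8 oocyte markers were 100.3 to 777 CPM in the fresh libraries and 0.670 to 1.36 CPM in culture, and those of 7 endothelial markers were 98.9 to 202 CPM and 5.44 to 7.52 CPM. EM replicate 3 stood apart, with 21.8% of its counts on mitochondrial genes against 6.76% to 11.1% in the other fresh libraries and with 16049 CPM of 5 red blood cell markers against 2439 to 5693 CPM. Fewer cells of a type and less RNA per cell cannot be told apart in these bulk samples.

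The genes ranged widely in level. Levels can be compared between genes only per length, so CPM was divided by the exon length in kilobases. In Con, Spred1 was highest at 7.81 ± 0.820 CPM per kilobase (SD, n = 5), followed by Spry2 at 6.88 ± 0.548, Dusp6 at 6.28 ± 1.83 and Fgfr2 at 5.14 ± 0.568 CPM per kilobase. Neighbours among these 4 genes lay within their combined spread. Spry4 at 4.21 ± 0.935, Fgfr1 at 2.73 ± 0.120, Spry1 at 1.85 ± 0.464 and Fgfr4 at 1.72 ± 0.216 CPM per kilobase came next, with Spry1 and Fgfr4 within their spread. Fgfr3 at 0.599 ± 0.158 and Kl at 0.284 ± 0.140 CPM per kilobase were lowest. In PBS the order was led by Dusp6 at 83.0 ± 2.54 CPM per kilobase (SD, n = 3), ahead of Spry2 at 13.7 ± 1.996 and Fgfr1 at 10.8 ± 0.709 CPM per kilobase, and Kl was again lowest at 0.0545 ± 0.0223 CPM per kilobase.

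**Figure D1:**
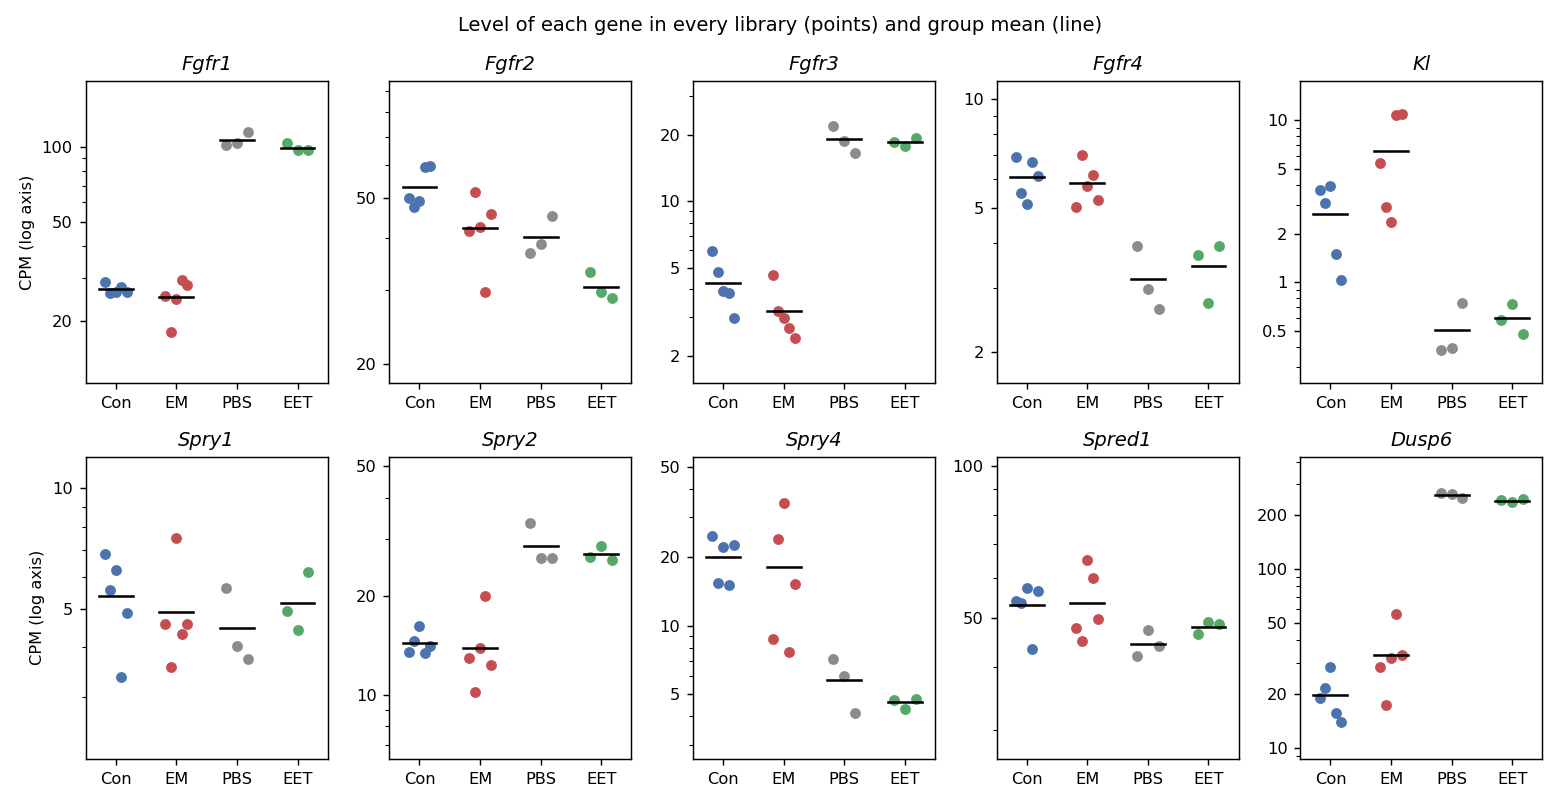
CPM on a log axis for each of the 10 genes, with a point per library and a line at the group mean in Con, EM, PBS and EET. Dusp6 rises from group means of 19.7 and 33.2 CPM in the fresh groups to 260 and 242 CPM in the cultured groups, while Kl is below 1 CPM in every cultured library.

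Dusp6 and Kl had the highest and the lowest log2 fold change of the 10 genes between cultured and fresh cells, so the 250 bases before their start sites are shown. The sequences are those of RefSeq on GRCm38.p6, on the plus strand, 5′ to 3′, with each CG in capitals. That of Dusp6 lies at chr10:99262981-99263230 and that of Kl at chr5:150952357-150952606.
Dusp6: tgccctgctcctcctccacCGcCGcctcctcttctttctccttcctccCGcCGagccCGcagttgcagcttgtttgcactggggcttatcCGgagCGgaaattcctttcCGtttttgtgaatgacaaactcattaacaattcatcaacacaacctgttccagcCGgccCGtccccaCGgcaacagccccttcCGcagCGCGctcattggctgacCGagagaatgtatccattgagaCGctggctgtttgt
Kl: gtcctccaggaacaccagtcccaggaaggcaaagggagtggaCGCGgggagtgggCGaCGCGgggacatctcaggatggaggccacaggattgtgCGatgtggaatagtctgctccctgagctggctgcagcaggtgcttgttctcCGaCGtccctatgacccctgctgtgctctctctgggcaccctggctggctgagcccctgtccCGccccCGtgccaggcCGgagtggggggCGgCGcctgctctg

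The Dusp6 sequence held 16 CG and the Kl sequence 13, against a median of 6 over 32851 promoters of the same length. The RefSeq table matched 8 of the 10 genes, with 9 start sites, whose CG counts ran from 2 to 31. Motifs looked for on both strands in these windows were the ETS core CCGGAA, the AP-1 site TGACTCA, the cyclic AMP response element TGACGTCA and the TATA box TATAAA. The ETS core was present in 1 of the 9 windows, that of Fgfr4, against 12% of all promoters. The other motifs were in 0 of the 9 windows, against 4.46% of all promoters for AP-1, 1.55% for the cyclic AMP response element and 12.4% for the TATA box. The absence of these letters from a window says nothing of the factors.

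The first comparison asked which of the genes differ between mGCs of EM and Con mice. No gene of the 10 passed an adjusted p of 0.05 with edgeR's quasi-likelihood test or with DESeq2, beside 0% of the 17229 genes tested by edgeR. Over all genes DESeq2 called 116. At an unadjusted p under 0.05 there were 3 of the 10, namely Kl and Dusp6 on the side of EM and Fgfr2 on the side of Con, against 9.44% of all genes. None of the 10 had groups that did not overlap, against 1.73% of all genes. The median log2 fold change of the 10 genes was -0.09, against -0.01 over all genes tested.

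Kl encodes Klotho, the membrane partner through which FGF23 binds its receptors in the kidney. The gene (ENSMUSG00000058488) spans 150876072 to 150917282 on the plus strand of chromosome 5, on GRCm39 per the submitters' notes. In Con its levels were 3.70, 3.09, 3.93, 1.501 and 1.04 CPM in replicates 1 to 5, and in EM they were 5.48, 2.91, 2.37, 10.8 and 10.9 CPM. EM replicates 4 and 5 were above every other library, while EM replicates 2 and 3 lay within the range of Con. The log2 fold change was 1.29 (SE 0.49, 95% interval 0.23 to 2.35, unadjusted p = 0.0209, adjusted p = 0.494 by edgeR), and 128 of the 17229 genes had a higher one. The counts behind these values were 19 to 173 reads. EM replicates 4 and 5 also had the highest summed level of 6 neutrophil markers, 170.7 and 171.3 CPM, against 41.8 to 80.9 CPM in the other EM libraries and 7.34 to 56.5 CPM in Con. The part of neutrophil RNA in the Kl values was not tested.

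Dusp6 (ENSMUSG00000019960), at 99099093 to 99103351 on the plus strand of chromosome 10 on the same build, had levels of 19.0, 21.6, 28.4, 15.5 and 13.9 CPM in Con and of 28.2, 17.3, 31.7, 55.8 and 33.0 CPM in EM. EM replicate 4 was highest, and EM replicates 1 and 2 lay within the Con range. Its log2 fold change was 0.75 (SE 0.28, 95% interval 0.15 to 1.35, unadjusted p = 0.0186, adjusted p = 0.483 by edgeR). Leaving out one library at a time gave values from 0.48 to 0.92. EM replicate 4, the highest for Dusp6, had the lowest summed level of the 12 granulosa markers (7803 CPM) and EM replicate 2, the lowest of its group, had the highest (25185 CPM), with the other fresh libraries at 13073 to 18841 CPM. The part of this difference in the Dusp6 values was not tested.

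Among the receptors, Fgfr2, a receptor whose splice forms bind different FGFs, was at 49.8, 47.4, 49.2, 59.3 and 59.5 CPM in Con and at 41.5, 51.6, 42.4, 29.7 and 45.7 CPM in EM. Only EM replicate 2 was within the Con range. The log2 fold change was -0.34 (SE 0.14, unadjusted p = 0.0308, adjusted p = 0.510 by edgeR). Summed levels of 8 stromal markers were lower in every EM library (620 to 1414 CPM) than in every Con library (1511 to 1661 CPM), and 0 of the 8 were called by edgeR, with 4 at an unadjusted p under 0.05 and 1 called by DESeq2. The median log2 fold change was -0.41 for stromal, -0.51 for theca, -0.57 for smooth muscle, -0.28 for endothelial and -0.08 for granulosa markers. It was above 0 for leukocyte, neutrophil, red blood cell and luteal markers. EM replicate 2, the highest of EM for Fgfr2, had the lowest stromal sum (620 CPM). Its summed level of the 12 granulosa markers was the highest (25185 CPM). EM replicate 4, the lowest for Fgfr2, had a stromal sum of 1073 CPM and the lowest granulosa sum (7803 CPM). The part of RNA of stromal, granulosa or other cells in the Fgfr2 values was not tested. Fgfr1 was at 26.9 ± 1.19 CPM in Con and 25.0 ± 4.32 CPM in EM (SD, n = 5 each), Fgfr3 at 4.29 ± 1.13 and 3.19 ± 0.868 CPM, and Fgfr4 at 6.08 ± 0.766 and 5.85 ± 0.793 CPM, with overlapping groups for each. Their log2 fold changes were -0.11 (95% interval -0.39 to 0.16), -0.43 (-0.97 to 0.10) and -0.06 (-0.43 to 0.30).

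The remaining feedback genes differed by less than the spread between the libraries. Spry4 was the most variable of them, at 24.8, 15.4, 22.2, 15.1 and 22.6 CPM in Con and at 8.71, 24.2, 34.6, 7.69 and 15.4 CPM in EM. EM held both its highest and its lowest fresh library. Its log2 fold change was -0.15 (95% interval -0.94 to 0.63), against -0.14 (-0.68 to 0.40) for Spry1, -0.06 (-0.43 to 0.31) for Spry2 and 0.01 (-0.25 to 0.27) for Spred1. The intervals for Spry4 and Spry1 leave room for larger changes in either direction than those for Spry2 and Spred1. Summed levels of the 8 oocyte markers were 725, 333, 512, 375 and 738 CPM in Con replicates 1 to 5. In EM replicates 1 to 5 they were 100.3, 670, 777, 232 and 458 CPM. The part of oocyte RNA in the Spry4 values was not tested.

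The genes whose log2 CPM ran closest to that of Kl over the 10 fresh libraries, among 12817 genes ranked, were Kcnab3 (Pearson r = 0.954, Spearman rho = 0.927), Sav1 (r = 0.950, rho = 0.927) and Pde4d (r = 0.949, rho = 0.927). For Dusp6 they were Trappc1 (r = 0.983, rho = 0.976), Rgcc (r = 0.983, rho = 0.964) and Acsl5 (r = 0.982, rho = 0.879). These values describe 10 libraries of unequal cell make-up and carry no test.

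The second comparison asked what 14,15-EET changed in cultured mGCs of EM mice. Fgfr2 fell and the other 9 genes did not pass the test, so 1 of 10 was called, beside 1.22% of the 15050 genes tested by edgeR. At an unadjusted p under 0.05 there was also 1 of 10, against 12.4% of all genes. The groups did not overlap for 2 of 10, Fgfr2 and Dusp6, against 17.3% of all genes. The median log2 fold change of the 10 genes was -0.05, against 0.00 over all genes tested. Some cell type markers also moved. Of 11 granulosa markers tested, 6 had an unadjusted p under 0.05 and Inha was called lower (2837 to 2198 CPM), with summed levels of 7019 to 7693 CPM in PBS and 6511 to 7041 CPM in EET. Of 6 smooth muscle markers, 3 had a log2 fold change above 0 and 3 below, and the list median was 0.19. Of these 6, 4 had an unadjusted p under 0.05 and Cnn1 was called lower (10.8 to 6.63 CPM). Of 7 luteal markers tested, 3 lay above 0 and 4 below, 4 had an unadjusted p under 0.05 and Ptgfr was called higher (6.96 to 13.4 CPM). Summed luteal levels were 9512 to 9723 CPM in PBS and 9029 to 9377 CPM in EET. The part of these shifts in the values of the 10 genes was not tested.

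Fgfr2 was at 36.9, 38.7 and 45.2 CPM in PBS and at 33.1, 29.7 and 28.7 CPM in EET. Every EET library was below every PBS library. The fall was 0.761-fold, a log2 fold change of -0.39 (SE 0.08, 95% interval -0.57 to -0.21, adjusted p = 0.0410 by edgeR and 0.00439 by DESeq2). The direction remained without each library in turn, but the call was lost without PBS replicate 3 (log2 fold change -0.31, adjusted p = 0.156), without EET replicate 2 (-0.38, adjusted p = 0.198) or without EET replicate 3 (-0.35, adjusted p = 0.254). The Fgfr2 counts carry a further limit. The deposited annotation gives Fgfr2 a span of 2960899 bases, from 129764181 to 132725079 on the minus strand of chromosome 7 (GRCm39 per the submitters' notes), which covers all or part of 71 other genes, 36 of them on the same strand. How shared reads were counted is not stated. Of those on the same strand, 10 were tested and had a mean of at least 1 log2 CPM in culture, and 0 of these 10 were called, with log2 fold changes from -0.33 (Chst15) to 0.17 (Nsmce4a). The strand setting is not given either, and genes on the other strand were not compared. Among them is Htra1, with 9639 to 38261 reads per library against 475 to 1087 for Fgfr2. Apart from Fgfr2, the other 9 genes examined overlapped no gene with more than 5 reads in a library.

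Dusp6 was at 266, 263 and 251 CPM in PBS and at 243, 237 and 246 CPM in EET. The gap between the groups was narrow, and the log2 fold change of -0.10 (SE 0.05, 95% interval -0.20 to 0.00) did not pass the test (adjusted p = 0.417 by edgeR). Spry4 was at 7.14, 6.01 and 4.16 CPM in PBS and at 4.73, 4.29 and 4.79 CPM in EET, with a log2 fold change of -0.31 (95% interval -0.71 to 0.10). Its groups overlapped through PBS replicate 3. The log2 fold change was -0.51 without PBS replicate 3 and -0.14 without PBS replicate 1.

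Fgfr1 was at 107 ± 7.00 CPM in PBS and 99.5 ± 3.505 CPM in EET (SD, n = 3 each), with a log2 fold change of -0.10 (95% interval -0.22 to 0.02). The intervals were -0.25 to 0.19 for Fgfr3, -0.28 to 0.14 for Spry2 and -0.02 to 0.25 for Spred1, and they were wider for Fgfr4 (-0.30 to 0.58) and Spry1 (-0.18 to 0.63). Kl had 7 to 18 reads per cultured library, and its log2 fold change of 0.22 (95% interval -0.61 to 1.05) shows that neither a fall nor a rise could be resolved at this depth.

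The third comparison set cultured against fresh mGCs of EM mice. Fgfr1, Fgfr3, Spry2 and Dusp6 were higher in PBS than in EM and Fgfr4, Kl and Spry4 were lower, so 7 of 10 were called with edgeR and with DESeq2. Of the 17301 genes tested by edgeR, 31.1% were called higher and 37.9% lower, so 4 of 10 higher and 3 of 10 lower is near the background. The groups did not overlap for the same 7 genes, against 66.4% of all genes. The median log2 fold change was -0.12 for the 10 genes and -0.11 for all genes tested. Culture, time after isolation, serum, experiment and depth cannot be told apart here. The EM libraries also serve in the first comparison and the PBS libraries in the second, so the comparisons are not independent.

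Dusp6, at 17.3 to 55.8 CPM in EM and 251 to 266 CPM in PBS, was 7.70-fold higher in PBS (log2 fold change 2.94, SE 0.29, adjusted p = 1.57e-05 by edgeR). Only 324 genes had a higher log2 fold change. Fgfr3, a receptor best known from the growth plate, was at 4.64, 3.21, 2.98, 2.69 and 2.41 CPM in EM and at 21.8, 18.8 and 16.5 CPM in PBS, a difference of 2.56 on the log2 scale (SE 0.22, adjusted p = 6.48e-06 by edgeR). Fgfr1, the receptor most widely expressed in mesenchymal cells, was at 25.4, 18.1, 24.6, 29.3 and 27.9 CPM in EM and at 102, 104 and 115 CPM in PBS, a difference of 2.07 (SE 0.15, adjusted p = 2.12e-06 by edgeR). For each of these genes every PBS library was above every EM library. Spry2 rose from 13.9 ± 3.72 CPM (SD, n = 5) to 28.6 ± 4.17 CPM (n = 3), a log2 fold change of 1.02 (SE 0.21, adjusted p = 0.00159 by edgeR).

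Kl was at 2.37 to 10.9 CPM in EM and at 0.381, 0.395 and 0.748 CPM in PBS, 12.7-fold lower (log2 fold change -3.67, SE 0.64, adjusted p = 0.000604 by edgeR). The PBS values rest on 7, 9 and 18 reads. Markers of most other cell types fell with it. All 8 leukocyte, 6 neutrophil, 7 endothelial, 6 surface epithelium and 8 oocyte markers were called lower in PBS, as were 7 of 8 stromal, 11 of 12 granulosa and 5 of 7 theca markers. Summed theca markers went the other way, from 540 to 866 CPM in EM to 3590 to 4317 CPM in PBS. Most of that sum was Aldh1a1, which rose from 432 to 3887 CPM, while Cyp17a1 fell from 207 to 0.0363 CPM. Of 6 smooth muscle markers, Acta2 (131 to 624 CPM) and Cnn1 (6.02 to 10.8 CPM) were called higher and 3 lower, and their sum went from 106 to 277 CPM in EM to 577 to 774 CPM in PBS. Neutrophil markers summed to 0.0416 to 0.163 CPM in PBS. The part of these cells in the fresh level of Kl was not tested.

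Spry4 was at 7.14, 6.01 and 4.16 CPM in PBS, below the EM range of 7.69 to 34.6 CPM (log2 fold change -1.67, SE 0.50, adjusted p = 0.0128 by edgeR). Without PBS replicate 3 the adjusted p was 0.0534 by edgeR. All 8 oocyte markers were also called lower in PBS, and the part of oocyte RNA in the Spry4 values was not tested. Fgfr4, a receptor known for bile acid control in the liver, was at 5.03, 7.02, 5.74, 6.19 and 5.27 CPM in EM and at 3.92, 2.98 and 2.62 CPM in PBS (log2 fold change -0.90, SE 0.22, adjusted p = 0.00388 by edgeR). The genes that were not called were Fgfr2 (-0.09, 95% interval -0.44 to 0.27), Spry1 (-0.16, -0.78 to 0.46) and Spred1 (-0.29, -0.61 to 0.03). Spred1 passed the test without EM replicate 2 (adjusted p = 0.0300 by edgeR). Members of the Sprouty family therefore lay on both sides, with Spry2 higher, Spry4 lower and Spry1 not called.

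**Figure D2:**
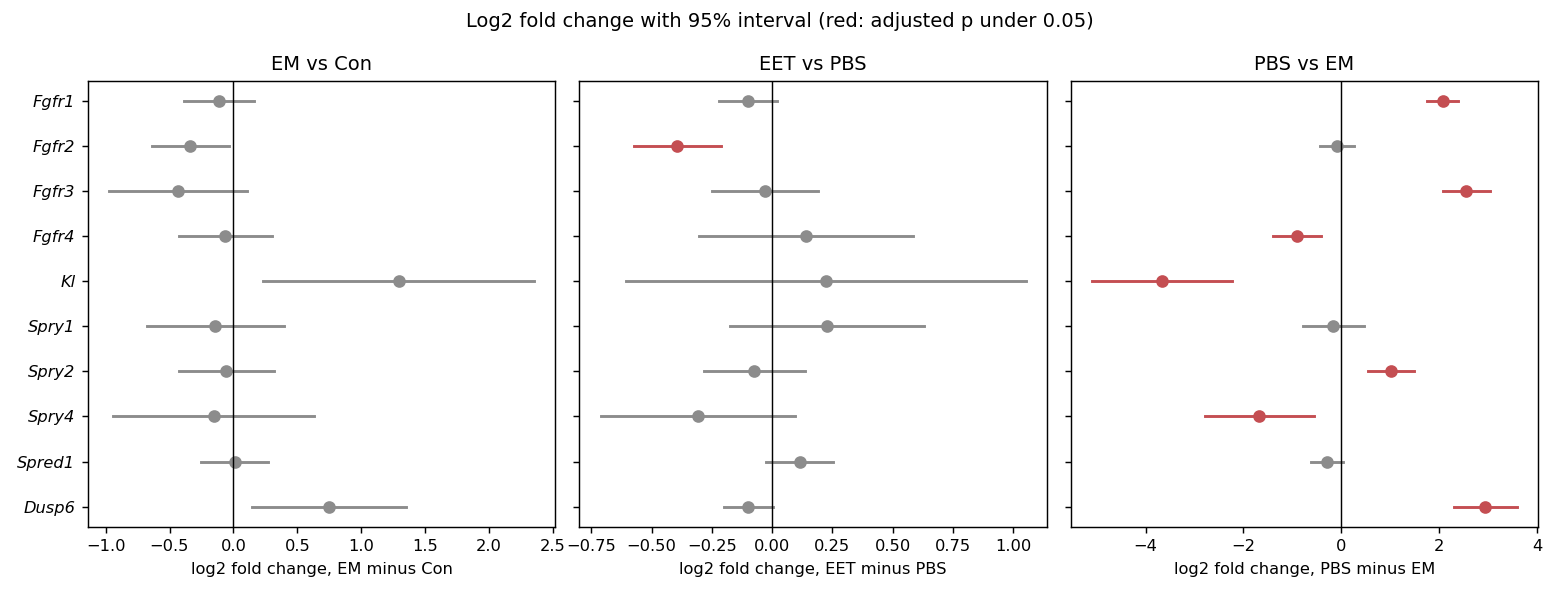
Log2 fold change of each of the 10 genes with its 95% interval in EM against Con, EET against PBS and PBS against EM, each panel with its own scale, in red where the adjusted p was under 0.05. No gene is red for EM against Con, Fgfr2 alone for EET against PBS and 7 genes for PBS against EM.

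The receptors were also set against each other, as shares of the sum of their CPM per kilobase in each library. Fgfr2 held the largest share in 9 of the 10 fresh libraries, with 45.8% to 54.5% in Con and 36.1% to 54.0% in EM. In EM replicate 4 Fgfr1 exceeded it, with 37.2% against 36.1%. In culture Fgfr1 held 57.2% to 61.1% in PBS and 59.99% to 61.6% in EET, and Fgfr2 held 19.8% to 22.9% and 16.9% to 18.5%. Fgfr4 held 16.4% to 21.9% in EM and 3.88% to 6.14% in PBS. Fgfr3 held 3.71% to 7.49% in EM and 12.1% to 16.9% in PBS. The sum of the 4 receptors was 9.42 to 10.9 CPM per kilobase in Con and 7.96 to 9.26 in EM. It was 17.8 to 19.1 in PBS and 15.99 to 17.3 in EET. The fresh groups did not overlap and neither did the cultured ones, with narrow gaps. Of single genes tested, 1.73% did not overlap between EM and Con and 17.3% between EET and PBS. A share and the sum both depend on the exon length used and on the Fgfr2 counts, and no test was run on either.

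**Figure D3:**
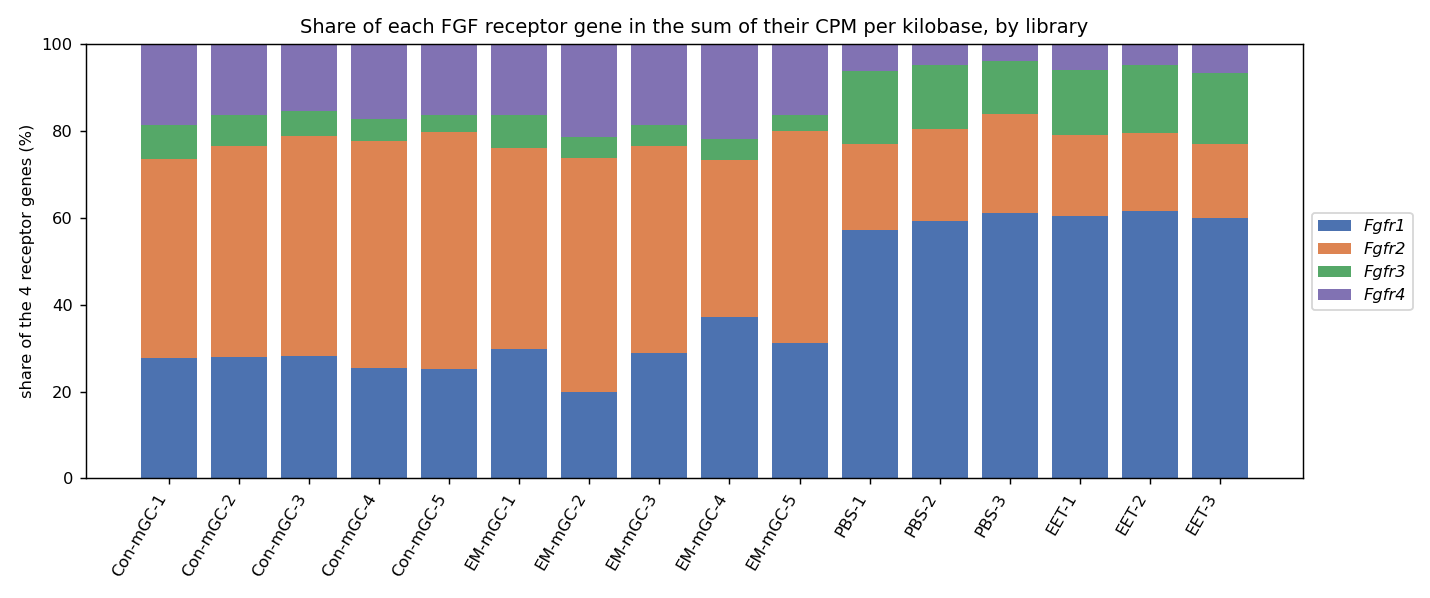
Stacked bars give the share (%) of Fgfr1, Fgfr2, Fgfr3 and Fgfr4 in the sum of their CPM per kilobase, with a bar per library. Fgfr2 takes 36.1% to 54.5% of the sum in the fresh libraries, and Fgfr1 takes 57.2% to 61.6% in the cultured libraries.

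Other genes of the pathway were described from lists of ligands, co-receptors, adaptors, RAS to ERK kinases, further feedback genes and ERK target genes. Further lists held genes of EGF receptors and their ligands and genes of vitamin D and phosphate handling. In EM against Con, 0 genes of these lists were called by edgeR or DESeq2. Over all genes, 9.44% had an unadjusted p under 0.05 and 8296 of 17229 had a log2 fold change above 0. At an unadjusted p under 0.05 there were 5 of 14 ERK target genes, 3 of 15 co-receptors, 2 of 14 further feedback genes, 1 of 17 RAS to ERK genes and 1 of 6 vitamin D and phosphate genes. The ERK target genes had a median log2 fold change of 0.36, with 11 of 14 above 0, against a median of -0.01 over all genes. Fos, an immediate early gene, was at 151 ± 39.4 CPM in Con and 262 ± 108 CPM in EM (log2 fold change 0.79, adjusted p = 0.437 by edgeR), and Egr1 at 202 ± 38.5 and 256 ± 122 CPM (0.34, adjusted p = 0.681). Sdc1, a heparan sulphate carrier, was at 214 ± 73.9 and 452 ± 366 CPM (1.07, adjusted p = 0.510), and the phosphate transporter gene Slc20a1 at 82.6 ± 14.7 and 123 ± 33.1 CPM (0.57, adjusted p = 0.443).

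The other genes named by level in that comparison ran from -0.38 to 0.24 on the log2 scale, and none was called by edgeR. The log2 fold changes were -0.01 for Fgf13 and -0.26 for Fgf1 among the ligands, -0.04 for the proteoglycan gene Hspg2, -0.38 for Gab2 and 0.06 for Ptpn11 among the adaptors, and 0.10 for Mapk3 of the kinase cascade. They were 0.24 for Dusp1 and -0.02 for Lztr1 among the feedback genes, -0.19 for Egfr, -0.25 for Erbb2 and 0.19 for Slc20a2.

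With 14,15-EET, 2 of 15 ERK target genes were called, both lower, and 0 genes of the other lists were called by edgeR. Egr1 fell from 80.2 ± 7.83 CPM in PBS to 47.3 ± 3.23 CPM in EET (SD, n = 3 each, log2 fold change -0.76, SE 0.07, adjusted p = 0.000561 by edgeR). Fos fell from 43.0 ± 8.20 to 24.6 ± 2.38 CPM (-0.80, SE 0.12, adjusted p = 0.00611 by edgeR). For both genes all 3 EET libraries were below all 3 PBS libraries. Their list had a median of -0.14, with 8 of 15 below 0. Frs2, the adaptor that binds FGF receptors directly, was at 246 ± 6.70 CPM in PBS and 285 ± 12.1 CPM in EET, and its difference of 0.21 missed the threshold with edgeR (adjusted p = 0.0722) and passed it with DESeq2 (adjusted p = 0.0139). The same held for Slc20a1, at 117 ± 8.19 and 137 ± 5.36 CPM (0.23, adjusted p = 0.0774 by edgeR and 0.0278 by DESeq2), and for the co-receptor gene Sdc3, at 559 ± 31.9 and 649 ± 3.18 CPM (0.22, adjusted p = 0.0687 by edgeR and 0.00441 by DESeq2).

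Further log2 fold changes with 14,15-EET were small in the genes of highest level. They were -0.17 for Fgf11, 0.11 for Fgf18, -0.11 for Hspg2, 0.15 for Sdc1, 0.07 for Ptpn11, 0.01 for Rras2, -0.03 for Dusp4 and -0.04 for Lztr1. For Egfr, Erbb2 and Slc20a2 they were -0.13, -0.16 and -0.09.

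Between PBS and EM, genes of every list were called in both directions. Over all genes tested, 31.1% were called higher and 37.9% lower, and the median difference was -0.11 on the log2 scale. The RAS to ERK genes, with 7 and 6 of 17, lay near these shares. Of 10 ligands tested, 5 were higher and 3 lower in PBS. Fgf5 went from 0.216 ± 0.208 CPM in EM to 10.9 ± 2.38 CPM in PBS (log2 fold change 5.56, adjusted p = 5.51e-06 by edgeR) and Fgf18 from 1.18 ± 0.498 to 10.5 ± 0.837 CPM (3.13, adjusted p = 1.92e-05). Fgf8, an oocyte FGF in the mouse ovary, was at 0.375 to 2.48 CPM in EM and had 0 reads in all 3 PBS libraries, at least 30.3-fold lower against a floor of 3 counts over the group. The oocyte markers were also near 0 in culture, and the part of oocyte RNA in the Fgf8 values was not tested. Of 15 co-receptors and binding proteins, 10 were higher and 2 lower, with a median of 1.17. Among the glypicans, which carry heparan sulphate, Gpc6 (4.01) and Gpc1 (2.72) were higher and Gpc3 (-5.28) was lower.

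Inside the cell, 8 of 12 adaptors were higher and 1 lower, with a median of 0.40. Frs2 (1.61) and Ptpn11 (1.45), a phosphatase needed for RAS activation, were higher and Gab2 (-1.52) was lower. The RAS to ERK genes were split, with 7 of 17 higher and 6 lower. Rras2 (3.56) and Hras (1.31) were higher and Ksr2 (-4.20), a scaffold of the cascade, was lower. Of 14 further feedback genes, 5 were higher and 3 lower, led by Dusp4, a nuclear ERK phosphatase, which rose from 2.68 ± 2.28 CPM in EM (SD, n = 5) to 346 ± 61.7 CPM in PBS (n = 3), a log2 fold change of 6.98 (adjusted p = 1.76e-06 by edgeR). Dusp8 (3.80) was also higher and Dusp2 (-2.46) was lower.

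ERK target genes did not move one way, with 6 of 15 higher, 4 lower and a median of 0.00. Fosl1 (4.16) and Ier3 (2.32) were higher, while Fos fell from 262 ± 108 to 43.0 ± 8.20 CPM (-2.63, adjusted p = 5.42e-05 by edgeR). Dusp6 and Fos, both induced by ERK, thus lay on opposite sides. Of 10 genes of EGF receptors and their ligands, 4 were higher and 2 lower, among them Erbb4 (3.67), Erbb3 (1.503) and the ligand gene Areg (-1.43). Of 6 vitamin D and phosphate genes tested, 2 were higher and 1 lower. Beside the lower Kl, the phosphate transporter genes Slc34a2 (3.32) and Slc20a2 (0.79) were higher and Cyp27b1 (-2.06), which makes active vitamin D, was lower.

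**Figure D4:**
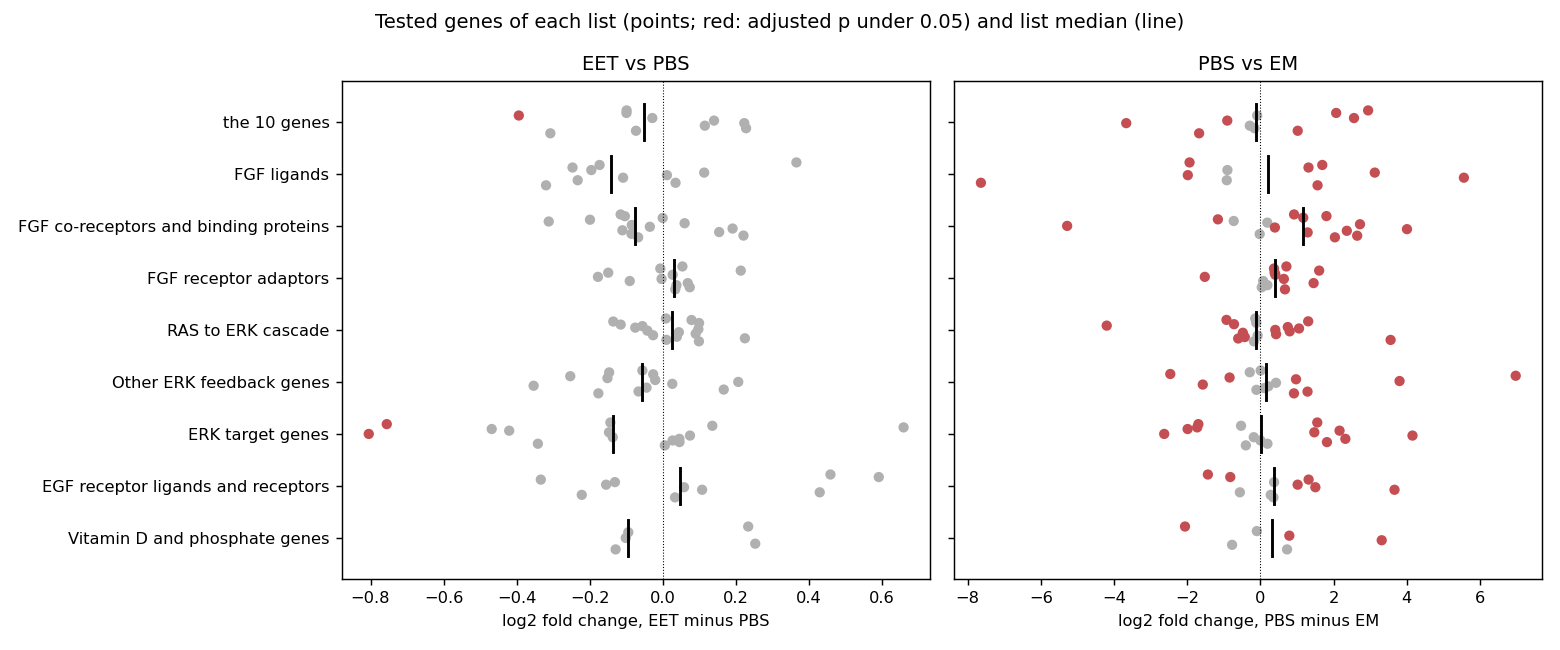
Log2 fold change of the tested genes of each list (points, red where the adjusted p was under 0.05) with the list median (line) for EET against PBS and for PBS against EM, each panel with its own scale. In the left panel red points are limited to Fgfr2, Egr1 and Fos, all lower. In the right panel every list has red points on both sides of 0.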

How the data were processed

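RNA-seq libraries were made from polyA RNA with a stranded mRNA kit. The authors deposited raw read counts per Ensembl gene in 2 tables, one of the 10 fresh and one of the 6 cultured libraries, with no column left unused (0). The submitters' notes name fastp, HISAT2, StringTie and GRCm39, and the deposited counts are labelled as made with featureCounts. Versions, strand setting and the treatment of reads shared by overlapping genes are not given in the sources used here. The tables were joined by gene ID, and CPM used TMM factors over all 16 libraries.

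Groups were compared with edgeR 4.0.16 in R 4.3.3 (filterByExpr with the group, TMM, quasi-likelihood test, two-sided) and Benjamini-Hochberg adjustment over all genes tested, with a gene called at an adjusted p under 0.05. Each comparison had its own fit. DESeq2 1.42.0, RLE factors, no filter, the replicate number as a block and leaving out each library were alternatives. The test was first tried on simulated counts with 200 changed genes. That libraries are biological replicates rests on the methods, which speak of paired replicates in culture without saying which libraries are pairs. Libraries differed by more than sampling noise.

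The 10 genes and all lists were chosen with earlier results of these data known. Of each other pathway list and comparison, at most the 3 called genes with the largest absolute log2 fold change are named, or the 2 with the highest CPM where none was called. Sdc3, Chst15, Nsmce4a and the marker genes were named after their values were seen, and 1 gene that the rule picks is not reported here. Likeness to Kl and Dusp6 was ranked among genes averaging 1 log2 CPM or more whose symbols are not predicted ones. Of 208 listed genes, 207 were matched. Exon lengths came from GENCODE on GRCm38, another build than that of the counts, and served only the values per kilobase. No protein sequence was used.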

Additional observations from a re-analysis of the deposited data

Results flagged for a closer look

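In groups of 5 libraries, a library was picked out where its distance to the nearest other library took more than 0.71 of the whole range of the group. Of 20 groups looked at, 2 held such a library, and chance alone gives about 1 in 20. Spry1 was at 7.50 CPM in EM replicate 3, with the next library at 4.58 CPM. That library also had 21.8% of its counts on mitochondrial genes, and the part of this in the Spry1 value was not tested. Spred1 was at 43.5 CPM in Con replicate 4, with the next library at 53.5 CPM.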

How the results depend on the processing

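The number of the 10 genes called remained 0 for EM against Con under every alternative run, and was 6 to 8 for PBS against EM. For EET against PBS it was 1 with DESeq2, RLE factors, no filter and the replicate block, and 0 to 1 when a library was left out, with 0 without PBS replicate 3, EET replicate 2 or EET replicate 3. Leaving out a library turned the sign of genes that were not called. The ranges were -0.23 to 0.037 for Spry2, -0.53 to 0.040 for Spry4 and -0.070 to 0.066 for Spred1 in EM against Con, -0.13 to 0.076 for Fgfr3 and -0.14 to 0.049 for Spry2 in EET against PBS, and -0.34 to 0.032 for Spry1 in PBS against EM. The cause was not tested.

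Calls over all genes depended more on the setting. For EM against Con they were 0, and 116 with DESeq2, 4 with no filter, 2 with the replicate block, 46 without Con replicate 3 and 1 without EM replicate 1. For EET against PBS they were 184, and 322 with DESeq2, 662 with no filter, 341 with the replicate block and 48 to 436 without a library. Libraries of PBS and EET with the same number did not deviate together (correlations of -0.01, 0.03 and -0.02), so equal numbers were not taken as pairs, and with the replicate block Fgfr2 was called at an adjusted p of 0.0309 by edgeR. Counts of 7 to 18 reads limit Kl in culture.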
